A study of Mus musculus with 6 samples.

Results

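Clustered protocadherins were followed in RNA-seq of control and senescent mouse adult fibroblasts (MAFs), primary cells grown from ear tissue. Members were chosen by biotype and symbol, as rows of the count table listed as protein coding under the symbols of alpha (*Pcdha*), beta (*Pcdhb*) or gamma (*Pcdhg*) members with a number. This gave 44 of 43346 genes, of which 8 lay in the alpha cluster, 22 in the beta cluster and 14 in the gamma cluster. A further 14 rows of the family fell outside it. Of these, 13 carry human-style symbols in the table, such as *PCDHA9*, and were given mouse symbols through their Ensembl identifiers in the GENCODE M21 annotation. The remaining row, *Pcdhgb8*, is listed as a polymorphic pseudogene. Values of these 14 rows are given where the clusters cannot be read without them, and the rows are then named as lying outside the selection. The row that the table calls *Pcdha10* (ENSMUSG00000007440) is called *Pcdha11* in M21 and keeps the table's name here.

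Both groups were 3 samples of MAFs from adult female C57BL6/J mice, cultured at 3% oxygen and used between passages 3 and 8. Senescent MAFs had been exposed to 20 Gy of X-rays 21 days earlier, and control MAFs were sham irradiated. All cells, controls included, were given dexamethasone at 100 nM for 2 hours and collected 12 hours after it, so every value describes synchronized cells at a single time. The comparison asks how the transcripts of senescent cells differ from those of control cells. The labels do not say whether the 3 samples of a group were separate cultures or animals. The p-values therefore judge the group difference against a spread between samples that may be technical.

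Clustered protocadherins are cadherin-like proteins of the cell surface, best known from neurons, where the combination of isoforms on a cell lets it tell its own branches from those of others. Each isoform has its own variable exon with its own promoter. In the alpha and gamma clusters this exon is spliced to constant exons that every member of the cluster shares and that encode a common cytoplasmic tail, whereas beta genes have no constant exons. Promoters are chosen with the help of CTCF, of cohesin, which brings them to distant enhancers, and of DNA methylation, which silences most of them in a given cell. The isoforms of the C type, at the end of the alpha and gamma clusters, are used more broadly than the others.

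All 3 clusters lie on the plus strand of chromosome 18 (mm10). Alpha rows span chr18:36930184-37187661, beta rows chr18:37264938-37524479 and gamma rows chr18:37661793-37841873. The constant part of the alpha cluster is made of 3 exons with 2860 bases in all, the last of them at chr18:37184946-37187657. That of the gamma cluster has 3 exons with 2116 bases, the last at chr18:37839903-37841870.

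Total counts ranged from 50288454 to 82229553 per library, and a count of 0 allows up to 3 counts. Beside the marker counts that follow, 36.2% of all 17589 genes tested were higher in senescent cells and 34.1% lower (adjusted p under 0.05, edgeR). The 8 fibroblast markers examined, among them *Col1a1*, *Pdgfra* and *Vim*, were all detected, and 3 were higher and 5 lower in senescent cells. Of the 5 senescence and proliferation genes, *Cdkn1a* and *Cdkn2a* were higher, and *Mki67*, *Top2a* and *Lmnb1* were lower. Clustered protocadherins are used in neurons, so neuronal markers were examined beside them. Their summed level lay between 40.6 and 42.7 CPM in control and between 46.7 and 55.8 CPM in senescent samples. Of 7 tested markers 5 were higher and 1 lower, and none of the 8 listed was at 0 in every library. In every control library *Nefl*, *Snap25* and *Rbfox3* had 0 counts. In senescent replicates *Nefl* had 93, 140 and 142, *Snap25* 16, 22 and 29, and *Rbfox3* 5, 13 and 9. The lower marker, *Map2*, fell from 26.3 to 8.11 CPM, while *Stmn2* rose from 3.64 to 20.3 CPM. Schwann cell and melanocyte markers summed to 51.5 to 56.6 CPM in control and 46.0 to 51.3 CPM in senescent samples. Of the 4 tested, 3 were lower and 1 higher, Sox10 had 0 counts in every control library and 20, 34 and 8 in senescent replicates, and *Tyr* and *Dct* had at most 3 counts in any library. Keratinocyte markers summed to 15.8 to 16.5 CPM and 7.68 to 7.78 CPM (1 of 3 tested lower), and skeletal muscle markers to 0.204 to 0.381 CPM and 1.13 to 1.25 CPM (1 of 1 tested higher). Chondrocyte markers were lower in 5 of 5 cases (4618 to 5139 CPM in control, 332 to 415 CPM in senescent samples), and endothelial markers higher in 4 of 4 (2.43 to 2.83 CPM and 7.38 to 8.08 CPM). Macrophage markers were higher in 3 of 3 tested (5.53 to 6.01 CPM and 9.15 to 10.8 CPM). The part of these markers in the values below was not tested. In bulk RNA, fewer cells of a type and less RNA per cell cannot be told apart.

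The deposited rows of the alpha cluster, and likewise those of the gamma cluster, were near copies of each other. In control replicate 1 the 8 alpha members held between 122 and 126 counts, and in senescent replicate 3 between 373 and 403. The 14 gamma members held between 14272 and 14905 counts in control replicate 1 and between 17336 and 18291 in senescent replicate 3. All rows of a cluster contain the constant exons in the annotation, so a read there can be entered in each of them. Between 5 and 8 of the 14 alpha rows were exactly equal to the lowest row in each library. In the gamma cluster the lowest row was *Pcdhgb8* in all 6 libraries. The lowest row was 91.2% to 96.8% of the highest member in the alpha cluster and 94.5% to 95.0% in the gamma cluster. It was therefore taken as the shared count of the cluster in that library, and what a row held above it as the counts of that member's own exon. This step was chosen after seeing the data. Any reads from the variable exon of *Pcdhgb8* itself stay in the shared count, so gamma values above it are lower limits. The plot of shared and own counts shows how little of most rows can be assigned to the variable exon of the named member. Reads of the constant exons can come from transcripts of any member of the cluster.

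**Figure D1:**
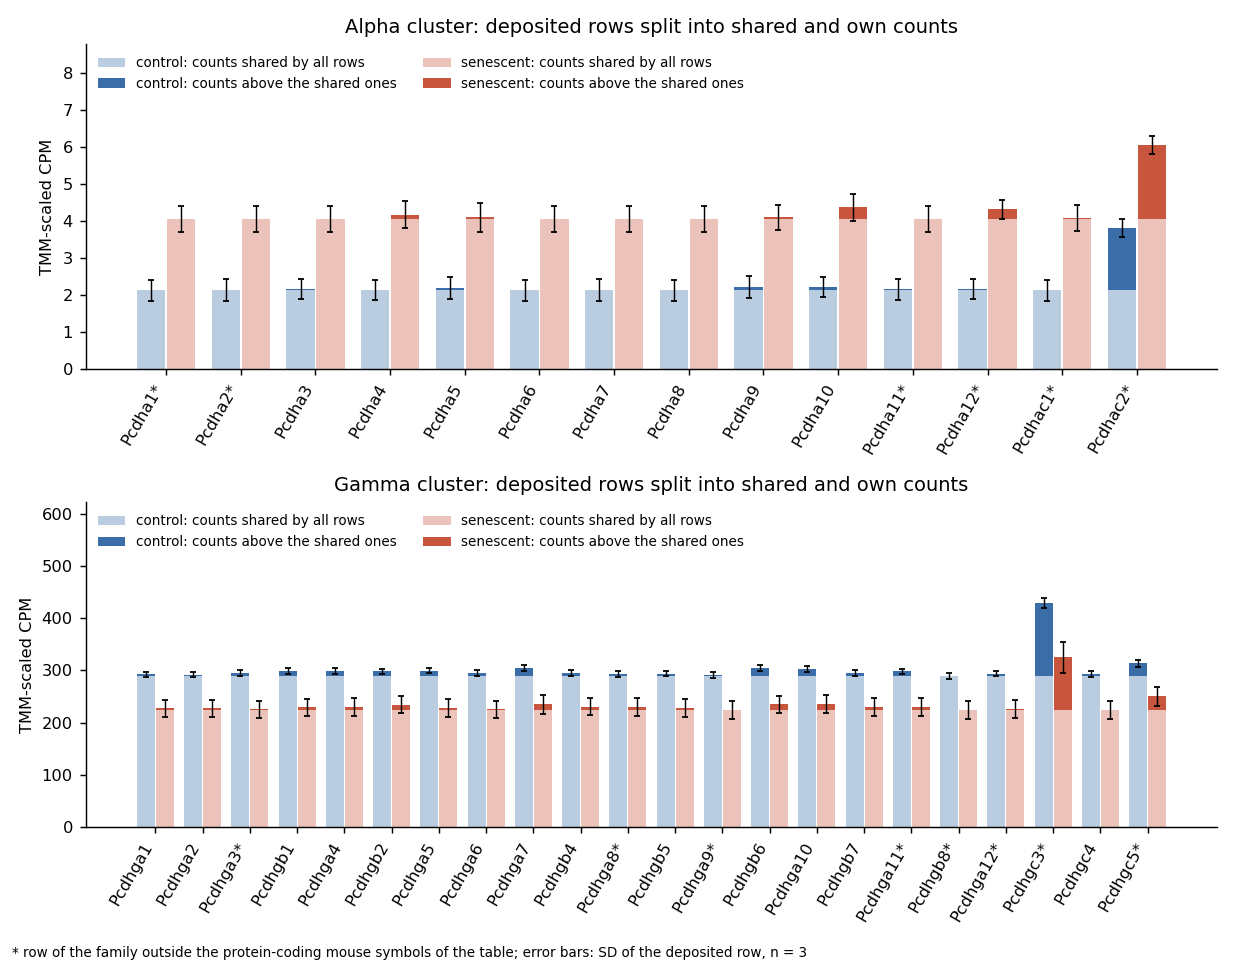
Mean TMM-scaled CPM of every alpha row (top) and gamma row (bottom) in control (blue) and senescent (red) samples, split into the counts shared by all rows of the cluster (pale) and the counts above them (dark). Bars are means of 3 samples, error bars are the SD of the whole row, and asterisks mark rows outside the selection. The pale part is nearly the whole bar except in *Pcdhac2*, *Pcdhgc3* and *Pcdhgc5*.

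Of the 44 members, 43 had enough counts for a test. *Pcdhb1* had 0 counts in every library. With the deposited counts, 10 members passed an adjusted p of 0.05 as higher in senescent cells (edgeR's quasi-likelihood test, Benjamini-Hochberg adjustment), against 36.2% of all 17589 genes tested, and 30 were lower, against 34.1%. The remaining 3, *Pcdhb3*, *Pcdhb12* and *Pcdhb18*, were not called. All 8 alpha members were among the higher ones and all 14 gamma members among the lower ones, but each of these groups repeats the measurement of its shared exons. The methods of the study name an unadjusted p under 0.05 and a change over 1 on the log2 scale. Its results name another p limit for this comparison, which was not applied here. With the limits of its methods, called the limits of the study here, 9 members were lower, against 12.3% of all genes. By the same limits 0 were higher with edgeR, against 17.8%, where DESeq2 gave 1 and 10 had an unadjusted p under 0.05. The median log2 fold change was -0.37 over the members and 0.01 over all genes tested.

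With the shared counts removed, 36 members could be tested. Of these, 4 were higher (36.4% of all genes in that table), 22 were lower (33.8%) and 10 were not called. The 22 were 15 beta and 7 gamma members, and the 4 were *Pcdha10*, *Pcdhb2*, *Pcdhb9* and *Pcdhgb4*. For the gamma cluster the deposited rows gave 14 lower members, and the counts above the shared ones gave 7 lower, 1 higher and 6 not called.

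Summed over the cluster with the shared counts entered once, alpha transcripts were at 4.29, 3.87 and 4.25 CPM in control replicates 1 to 3 and at 6.73, 7.02 and 7.10 CPM in senescent replicates 1 to 3. Beta transcripts summed to 92.1, 90.0 and 94.4 CPM in control and 55.8, 58.2 and 68.9 CPM in senescent samples. Gamma transcripts summed to 587, 608 and 596 CPM in control and 472, 484 and 421 CPM in senescent samples. The groups overlapped in none of the 3 clusters, with alpha higher and beta and gamma lower in senescent cells. The ratio of senescent to control was 1.68 ± 0.106 for alpha, 0.662 ± 0.0778 for beta and 0.768 ± 0.0579 for gamma (SD propagated from n = 3 per group). As deposited, with shared counts repeated in every member, the alpha ratio was 1.90 ± 0.299 and the gamma ratio 0.773 ± 0.0587. Per kilobase of shared exon, gamma constant exons stood at 137 CPM (control) and 106 CPM (senescent), and alpha constant exons at 0.744 and 1.41 CPM.

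The constant exons of the alpha cluster were higher in senescent cells. Their counts were 122, 113 and 100 in control and 207, 314 and 373 in senescent replicates 1 to 3. Scaled to library size this was 2.45, 1.89 and 2.04 CPM against 3.73, 3.96 and 4.42 CPM, without overlap. The log2 fold change was 0.94 ± 0.13 (SE; adjusted p = 0.000365, edgeR). The 8 deposited alpha rows followed it, from 0.90 for *Pcdha9* to 0.99 for *Pcdha10*.

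Above the shared counts most alpha members had few or no counts. *Pcdha6* and *Pcdha8* had 0 counts of their own in every library, *Pcdha7* had at most 2, *Pcdha3* at most 4 and *Pcdha5* at most 7. *Pcdha9* had 4, 4 and 5 counts in control and 4, 5 and 4 in senescent replicates. These members are adhesion isoforms that differ in their extracellular domains and share the alpha tail, and at this depth a difference between groups was not detectable for them. *Pcdha10* was the exception among members, with 3, 6 and 3 counts in control and 20, 20 and 30 in senescent replicates. All senescent values of *Pcdha10* lay above all control values, at a log2 fold change of 2.07 ± 0.36 (adjusted p = 0.00112, edgeR). Its control counts were too few for the filter, so it was tested through its senescent counts and could hardly be called lower. *Pcdha4* had 0, 2 and 1 counts in control and 7, 8 and 12 in senescent replicates, too few for the test.

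Outside the selection, *Pcdhac2*, a C-type isoform, held most of the alpha counts above the shared ones. It had 79, 99 and 89 such counts in control and 115, 164 and 159 in senescent replicates. Its share of them was 84.1% ± 1.74 in control and 69.1% ± 1.30 in senescent samples (SD, n = 3), without overlap. Its log2 fold change was 0.26 ± 0.12 (adjusted p = 0.0882), so its level did not pass the test, and it passed with library size alone (adjusted p = 0.0405). *Pcdha12* had 0, 2 and 2 counts in control and 16, 33 and 9 in senescent replicates, and *Pcdhac1*, the other C-type alpha isoform, 0, 0 and 0 against 2, 4 and 2. Over all alpha rows there were 92, 118 and 108 counts above the shared ones in control and 166, 242 and 226 in senescent replicates.

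Beta genes do not share exons with a constant region, and their rows were read as deposited. Of 22 members, 16 were lower (34.1% of all genes), 2 higher (36.2%) and 3 not called, and the log2 fold changes ran from -2.27 to 0.59 with a median of -0.85. With the limits of the study 9 were lower, against 12.3% of all genes. Among these, *Pcdhb6*, *Pcdhb10* and *Pcdhb11* passed the filter through their control counts. With at least 10 counts required in every library, 5 members were lower by these limits. How reads with several possible positions were counted was not given in the sources used here, so values of near-identical beta genes are uncertain. *Pcdhb21* and *Pcdhb22* also overlap over 455 bases.

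Per kilobase, *Pcdhb17*, *Pcdhb22* and *Pcdhb5* had the highest levels of the beta cluster. *Pcdhb17* stood at 3.42 CPM per kilobase in control and 2.77 in senescent cells, *Pcdhb22* at 2.69 and 1.16, and *Pcdhb5* at 2.47 and 1.22. The lowest expressed member in control cells, *Pcdhb11*, stood at 0.0949 CPM per kilobase. *Pcdhb22* held 19.3% ± 0.759 of all beta counts in control and 12.6% ± 0.477 in senescent samples, and *Pcdhb17* 17.3% ± 0.575 and 21.2% ± 0.522. *Pcdhb22* was thus the first member of the cluster by count in control cells, and *Pcdhb17* in senescent cells.

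*Pcdhb6* had the largest decrease of the beta cluster. Its level was 0.581, 0.653 and 0.695 CPM in control and 0.108, 0.151 and 0.130 CPM in senescent replicates 1 to 3. The groups did not overlap, and *Pcdhb6* was 4.82-fold lower in senescent cells (log2 fold change -2.27 ± 0.24, adjusted p = 6.80e-05, edgeR). *Pcdhb8* was at 0.862, 0.686 and 1.06 CPM in control and 0.253, 0.341 and 0.367 CPM in senescent replicates. It was 2.64-fold lower, without overlap (adjusted p = 0.00121). These are among the weakly expressed members. Senescent counts of *Pcdhb6* were too few for the filter, so it was tested through its control counts and could hardly be called higher.

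*Pcdhb22* fell from 18.5, 16.7 and 18.1 CPM in control to 6.73, 7.38 and 8.97 CPM in senescent replicates. Its log2 fold change was -1.20 ± 0.12 (adjusted p = 4.57e-05), and every senescent value was under 9 CPM while every control value was over 16 CPM. *Pcdhb7* was at 3.09, 2.74 and 3.05 CPM in control and 1.26, 1.27 and 1.32 CPM in senescent replicates. Its senescent values were nearly equal, at a log2 fold change of -1.20 ± 0.11 (adjusted p = 3.74e-05). *Pcdhb13* was at 1.66, 1.36 and 1.39 CPM in control and 0.686, 0.568 and 0.794 CPM in senescent replicates, without overlap (-1.10 ± 0.18, adjusted p = 0.000844).

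The other 11 decreases ran from -1.15 (*Pcdhb10*) to -0.24 (*Pcdhb16*). *Pcdhb10*, *Pcdhb11*, *Pcdhb21* and *Pcdhb5* passed the fold limit of the study, and *Pcdhb4*, *Pcdhb14*, *Pcdhb15*, *Pcdhb16*, *Pcdhb17*, *Pcdhb19* and *Pcdhb20* did not. *Pcdhb5*, at 9.08, 8.23 and 8.89 CPM in control, was at 4.17, 4.35 and 4.44 CPM in senescent replicates (-1.01 ± 0.09, adjusted p = 2.03e-05). *Pcdhb17*, the most abundant member per kilobase, changed little next to these, from 15.4, 15.7 and 16.8 CPM to 12.0, 12.5 and 14.2 CPM. Its groups did not overlap, but its log2 fold change of -0.30 ± 0.09 (adjusted p = 0.0160) was not called without control replicate 3, senescent replicate 1 or senescent replicate 2 (adjusted p = 0.0612, 0.0620 and 0.0542), nor with library size alone (adjusted p = 0.0508). *Pcdhb16* (adjusted p = 0.0475) lay at the threshold and lost its call in 11 of 12 alternatives. *Pcdhb14* lost its call without control replicate 3, senescent replicate 1 or senescent replicate 2 (adjusted p = 0.0554, 0.0509 and 0.0532), and *Pcdhb11* without control replicate 1 (adjusted p = 0.0645).

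The increases in the beta cluster were smaller. *Pcdhb9* was at 1.40, 1.89 and 1.94 CPM in control and 2.36, 2.49 and 3.01 CPM in senescent replicates. The groups did not overlap, and the log2 fold change was 0.59 ± 0.16 (adjusted p = 0.0126). *Pcdhb2* was at 0.962, 1.39 and 0.920 CPM in control and 1.77, 1.39 and 1.80 CPM in senescent replicates. Control replicate 2 and senescent replicate 2 were level, so the groups overlapped, and the change of 0.58 ± 0.20 (adjusted p = 0.0306) lost its call when control replicate 1, control replicate 3 or senescent replicate 1 was left out (adjusted p = 0.0959, 0.104 and 0.0783). As shares of the beta counts, *Pcdhb9* stood at 1.89% ± 0.322 in control and 4.29% ± 0.0651 in senescent samples, and *Pcdhb2* at 1.19% ± 0.310 and 2.72% ± 0.405.

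The 3 beta members that were not called had overlapping groups. *Pcdhb3* was at 1.76, 1.62 and 1.65 CPM in control and 1.23, 1.55 and 1.87 CPM in senescent replicates (-0.10 ± 0.17, adjusted p = 0.618). *Pcdhb12* was at 0.702, 0.787 and 1.00 CPM and 0.523, 0.530 and 0.746 CPM (-0.45 ± 0.23, adjusted p = 0.109). *Pcdhb18* was at 3.37, 3.06 and 3.13 CPM and 3.21, 3.73 and 5.24 CPM (0.36 ± 0.18, adjusted p = 0.111). The call for *Pcdhb12* appeared without senescent replicate 3 (-0.64, adjusted p = 0.0307), and that for *Pcdhb18* without senescent replicate 1 (0.50, adjusted p = 0.0339). *Pcdhb18* held 3.46% ± 0.178 of the beta counts in control and 6.59% ± 0.930 in senescent samples.

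**Figure D2:**
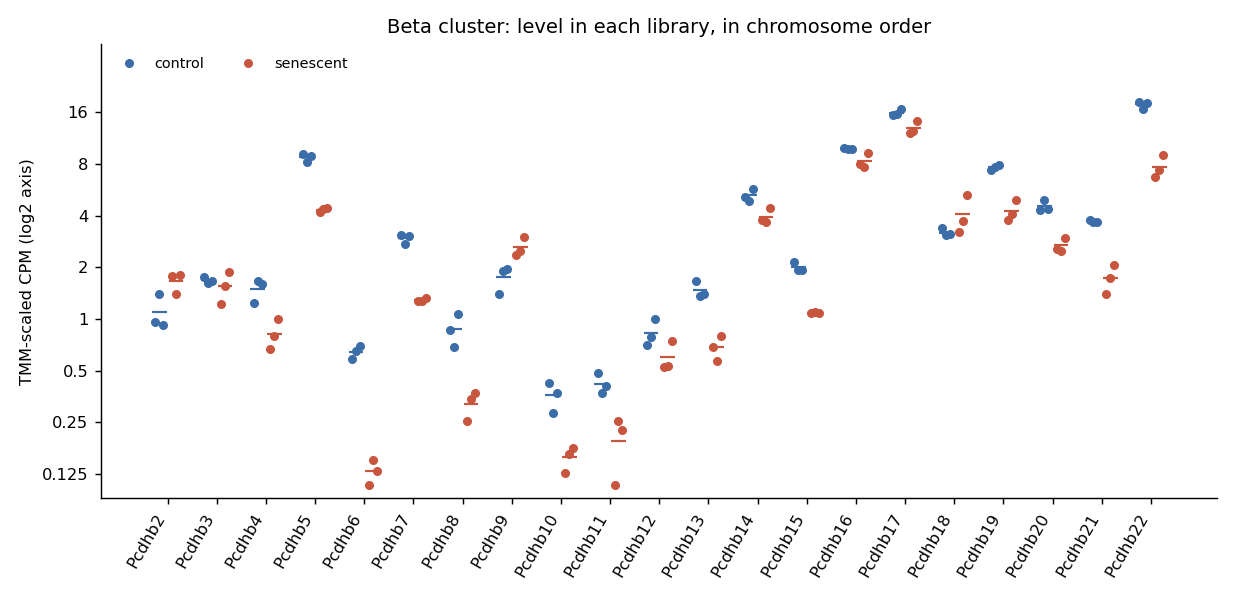
Level of the 21 beta members with a test in each of the 6 libraries, as TMM-scaled CPM on a log2 axis, in chromosome order from left to right. Points are libraries, with replicates 1 to 3 from left to right in each group, and short lines are group means. Blue control points lie above red senescent points for most members, and *Pcdhb9* shows the opposite order. The means of *Pcdhb2* also show the opposite order, but its groups overlap, as do those of *Pcdhb3*, *Pcdhb12* and *Pcdhb18*.

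Within the senescent group, replicate 3 had the highest value in 18 of the 21 beta members tested, replicate 2 in 3 and replicate 1 in 0. Without senescent replicate 3 the ratio of the beta sum was 0.618. The direction of change did not follow the order of the genes. Across the 21 members, Spearman's rho of the log2 fold change was -0.02 with the position along the chromosome and 0.19 with the control level per kilobase. These points share their libraries, so both values are a description.

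The constant exons of the gamma cluster were lower in senescent cells. Their counts were 14106, 17474 and 14283 in control and 12736, 18750 and 17278 in senescent replicates. After scaling they stood at 283, 292 and 292 CPM in control and 230, 237 and 205 CPM in senescent replicates, without overlap. The log2 fold change was -0.36 ± 0.07 (adjusted p = 0.00175, edgeR). The 14 deposited gamma rows lay between -0.39 and -0.35.

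Above the shared counts the gamma members went different ways, from -1.62 to 0.44 on the log2 scale. Of the 7 A-type members 4 were lower and 3 not called, and of the 6 B-type members 2 were lower, 1 higher and 3 not called, where 33.8% of all genes in that table were lower and 36.4% higher. The only C-type member, *Pcdhgc4*, was lower. A and B types differ in sequence and alternate along the cluster, and all 3 types carry the same gamma tail. With the rows outside the selection, 8 of 12 A-type rows were lower and 1 higher, and 2 of 3 C-type rows were lower.

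*Pcdhga6* had the largest decrease among gamma members. It stood at 6.44, 7.83 and 5.80 CPM above the shared level in control and at 2.22, 1.65 and 2.62 CPM in senescent replicates. Its groups did not overlap (-1.62 ± 0.19, adjusted p = 0.000121, edgeR). *Pcdhgc4*, the C-type member, was at 3.33, 3.68 and 3.53 CPM in control and 1.62, 1.49 and 0.687 CPM in senescent replicates. Senescent replicate 3 was the lowest of the 6, and the change was -1.49 ± 0.28 (adjusted p = 0.00164). *Pcdhga5* fell from 10.4, 10.1 and 10.4 CPM to 4.62, 4.91 and 4.19 CPM, with no overlap between narrow groups (-1.17 ± 0.09, adjusted p = 1.23e-05).

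*Pcdhgb1* was at 9.74, 10.7 and 9.65 CPM in control and 5.74, 5.32 and 5.51 CPM in senescent replicates (-0.86 ± 0.09, adjusted p = 5.14e-05). Its neighbour *Pcdhga4* was at 10.2, 10.7 and 10.2 CPM and 6.24, 6.69 and 6.14 CPM (-0.70 ± 0.08, adjusted p = 0.000111). Neither pair of groups overlapped, and the 2 rows have 1038 bases in common outside the constant exons, so they are not independent. *Pcdhgb6*, at 6.09 CPM per kilobase the highest gamma member in control cells, was at 16.0, 15.4 and 15.5 CPM and 11.3, 11.1 and 10.8 CPM (-0.49 ± 0.07, adjusted p = 0.000395). *Pcdhga7* was also lower, at -0.45 ± 0.10 (adjusted p = 0.00338).

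*Pcdhgb4* was the single gamma member that was higher, and it was named after its values had been seen. It stood at 4.73, 5.59 and 4.82 CPM in control and 6.53, 6.89 and 7.04 CPM in senescent replicates. Its groups did not overlap (0.44 ± 0.10, adjusted p = 0.00410). As deposited, with the shared counts inside, the *Pcdhgb4* row was called lower at -0.35. *Pcdhga8*, a neighbouring row outside the selection that shares 108 bases with it, had means of 4.54 ± 0.575 CPM (control) and 6.13 ± 0.301 CPM (senescent; SD, n = 3; log2 fold change 0.44 ± 0.11, adjusted p = 0.00892).

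The 6 gamma members that were not called above the shared counts were *Pcdhga1*, *Pcdhga2*, *Pcdhga10*, *Pcdhgb2*, *Pcdhgb5* and *Pcdhgb7*. Their log2 fold changes lay between -0.26 and 0.22. *Pcdhga10*, the most abundant of them, was at 13.4, 14.8 and 13.6 CPM in control and 13.1, 12.7 and 12.0 CPM in senescent replicates (-0.14 ± 0.08, adjusted p = 0.162). *Pcdhgb7* was at 6.32, 6.59 and 5.74 CPM and 6.35, 6.55 and 6.43 CPM (0.06 ± 0.09, adjusted p = 0.572). As deposited, all 6 rows were called lower. *Pcdhgb5* was called lower without control replicate 3 (-0.42, adjusted p = 0.0213) or without senescent replicate 3 (-0.32, adjusted p = 0.0488).

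Most of the gamma counts above the shared ones belonged to C-type rows outside the selection. *Pcdhgc3* stood at 136, 142 and 142 CPM in control and 107, 110 and 86.7 CPM in senescent replicates. It was lower without overlap (-0.46 ± 0.09, adjusted p = 0.00286), and per kilobase it was at 41.4 and 29.9 CPM. Its share of the gamma counts above the shared ones was 45.4% ± 1.11 in control and 43.0% ± 2.46 in senescent samples. *Pcdhgc5* was at 23.5, 24.3 and 24.5 CPM in control and 27.4, 27.5 and 25.2 CPM in senescent replicates. Its groups did not overlap, but its change of 0.16 ± 0.07 did not pass the test (adjusted p = 0.0708) and passed without senescent replicate 3 (adjusted p = 0.00359), with library size alone (0.0176) and with at least 10 counts in every library (0.0287). Its share was 7.82% ± 0.193 in control and 11.4% ± 0.284 in senescent samples. *Pcdhga3* had the largest change of all gamma rows, from 6.39 ± 0.423 to 1.77 ± 0.155 CPM (-1.84 ± 0.11, adjusted p = 3.04e-06). *Pcdhga9*, *Pcdhga11* and *Pcdhga12* were lower as well, at -1.11, -0.41 and -0.80.

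**Figure D3:**
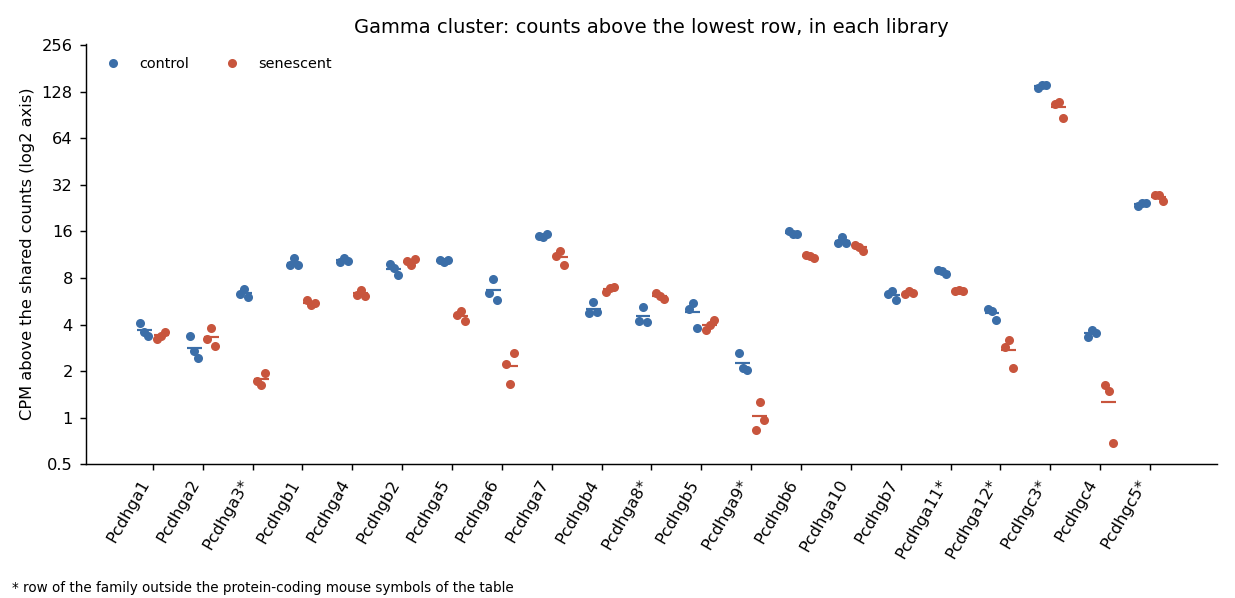
CPM above the shared counts of the gamma cluster in each of the 6 libraries, on a log2 axis, for 21 rows in chromosome order from left to right. Points are libraries, with replicates 1 to 3 from left to right in each group, short lines are group means, and asterisks mark rows outside the selection. *Pcdhgc3* lies above every other row in both groups, *Pcdhga3*, *Pcdhga6* and *Pcdhgc4* show wide gaps between control and senescent points, and *Pcdhgb4* and *Pcdhga8* are higher in senescent samples.

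**Figure D4:**
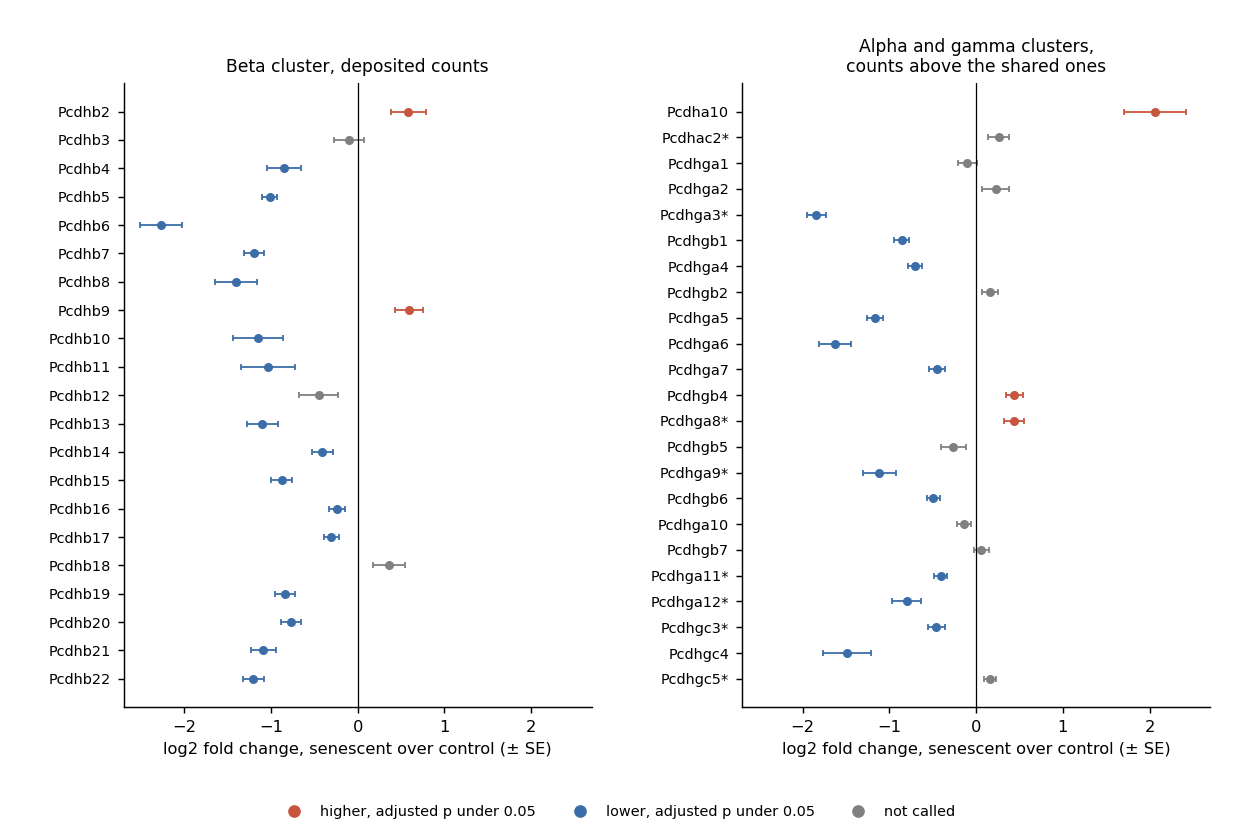
Log2 fold change (edgeR) of senescent over control cells for the beta members from the deposited counts (left). The right panel holds alpha and gamma rows from the counts above the shared ones, and bars are the SE derived from the test. Red and blue points had an adjusted p under 0.05, grey points did not, and asterisks mark rows outside the selection. Values run from -2.27 for *Pcdhb6* to 2.07 for *Pcdha10*, and each panel holds members on either side of 0.

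Other rows lie among the clusters. *Taf7*, which encodes a subunit of the general transcription factor TFIID and lies between the beta and gamma clusters, was higher (3.26 against 4.97 CPM, 0.61 ± 0.12, adjusted p = 0.00267). The lincRNA *3222401L13Rik*, just before the gamma cluster, was at 5.33 and 7.27 CPM (0.45, adjusted p = 0.0171, and 0.0660 without control replicate 2). The lincRNA *Gm26672*, inside the gamma cluster, was at 0.228 and 0.556 CPM (1.30, adjusted p = 0.00129). Named by their identifiers in M21, *Gm42416* (-0.77), *Gm37013* (-0.64), *Gm37388* (-0.64) and *Gm38182* (-0.58) were lower, and all 4 extend over constant exons of the gamma cluster. The table calls *Gm42416* *PCDHA4*, and it is a different row from the member *Pcdha4*. The pseudogene *Gm8242* was not called (-0.32, adjusted p = 0.312).

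The antisense row *BC037039*, which overlaps the start of *Pcdhgc3*, stood at 2.04 CPM in control samples and at 0.713 CPM in senescent ones (-1.51 ± 0.18, adjusted p = 0.000145). The libraries were stranded, but the strand setting of the counting was not given in the sources used here, so reads of *Pcdhgc3* and of this row cannot be told apart with certainty. Of the 5 nearest tested protein-coding genes on each side of the clusters, *Hars*, *Diap1* and *Arap3* were higher (0.33, 0.47 and 1.68), *Hdac3* was lower (-0.47), and *Wdr55*, *Dnd1*, *Hars2*, *Zmat2*, *Rell2* and *Fchsd1* were not called. *Wdr55* was called higher in 5 of 12 alternatives (adjusted p between 7.25e-05 and 0.0430), and *Hars2* (-0.14) and *Zmat2* (-0.15) were called lower without senescent replicate 3.

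The non-clustered protocadherins are relatives encoded by separate genes on several chromosomes. They were higher in 12 of 12 cases (36.2% of all genes), 10 of them by the limits of the study (17.8%). Control counts of *Pcdh8*, *Pcdh10*, *Pcdh11x*, *Pcdh12*, *Pcdh15*, *Pcdh17* and *Pcdh20* were too few for the filter. These genes were tested through their senescent counts, so they could hardly be called lower. With at least 10 counts required in every library, 5 non-clustered genes were called higher. The median log2 fold change of all 12 was 2.31, or 2.23 with *Pcdh15* at its lower bound. That of the 43 clustered members tested was -0.37 as deposited, where alpha and gamma rows repeat their shared counts. With shared counts removed it was -0.60, over a different set of 36 members with only 1 alpha member. *Pcdh7*, a large adhesion protein, was at 41.3, 40.5 and 39.3 CPM in control and 219, 224 and 248 CPM in senescent replicates (2.51 ± 0.07, adjusted p = 5.18e-08). *Pcdh19*, which binds N-cadherin in neurons, rose from 95.2 ± 2.48 to 214 ± 22.0 CPM (SD, n = 3; log2 fold change 1.17), *Pcdh9* from 21.2 ± 2.01 to 65.4 ± 5.87 CPM (1.62) and *Pcdh1* from 0.544 ± 0.184 to 5.43 ± 0.550 CPM (3.33). In none of these did the groups overlap.

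Several non-clustered members were close to 0 in control cells. *Pcdh17* had 0, 2 and 0 counts in control and 106, 160 and 184 in senescent replicates, *Pcdh20* 1, 1 and 1 against 88, 129 and 159, and *Pcdh10* 0, 6 and 1 against 67, 88 and 101. *Pcdh15* had 0 counts in all control libraries and 17, 21 and 26 in senescent replicates, which is at least 5.13-fold higher when control libraries are set to 3 counts each. *Pcdh11x* (1.69) and *Pcdh12* (2.10) were higher from 0.146 and 0.0594 CPM. *Pcdh18* (0.25, adjusted p = 0.0140) lost its call without control replicate 2 or control replicate 3 (adjusted p = 0.0587 and 0.0645). *Pcdh8* (0.90, adjusted p = 0.0320) lost it without control replicate 1, control replicate 3, senescent replicate 1 or senescent replicate 2 (adjusted p = 0.107, 0.0880, 0.0944 and 0.0506), with DESeq2 (0.0725) and with no filter beyond 1 count (0.0600).

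Regulators that act on the clusters were examined as lists. Of 10 tested genes for CTCF, cohesin and its loaders and releasers, 7 were lower (34.1% of all genes) and 3 were not called, with a median of -0.49. *Rad21*, the cohesin subunit that closes the ring, fell from 266, 243 and 247 CPM to 106, 99.6 and 125 CPM (-1.19 ± 0.09, adjusted p = 1.23e-05). *Smc1a* fell from 190 to 99.4 CPM (-0.93), *Ctcf* from 89.9 to 58.9 CPM (-0.61), *Smc3* from 126 to 83.1 CPM (-0.61) and *Pds5b* from 87.7 to 59.4 CPM (-0.56). Senescent replicate 3 was the highest of the senescent libraries for each of these, and without it *Pds5a*, *Stag1* and *Nipbl* were called lower as well (-0.17, -0.27 and -0.11).

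Of 13 genes for DNA methylation and heterochromatin regulators, 12 were lower (34.1% of all genes), with a median of -0.58. *Uhrf1*, which recruits the maintenance methyltransferase to replicated DNA, fell from 106, 118 and 119 CPM to 7.49, 7.42 and 5.91 CPM (-4.04 ± 0.11, adjusted p = 5.12e-08). *Dnmt1*, the maintenance methyltransferase, fell from 205 to 48.4 CPM (-2.08), and *Tet1*, which oxidises methylated cytosine, from 9.46 to 1.82 CPM (-2.38). *Dnmt3a* (-0.82) and *Kdm1a* (-0.58) were also lower. *Smchd1*, a chromosomal protein known to keep clustered protocadherins silent, fell from 124 to 85.6 CPM (-0.53, adjusted p = 0.00139). *Setdb1*, *Tet2* and *Zfp57* lost their calls without some libraries (adjusted p between 0.0511 and 0.0766), and *Setdb1* and *Zfp57* also with library size alone (0.0957 and 0.0792). *Uhrf1* and *Dnmt1* are also genes of dividing cells, and *Mki67*, *Top2a* and *Lmnb1* were lower in the same samples, but the part of cell division in these values was not tested.

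Of 13 partners of the cytoplasmic domains and proteases, 6 were higher (36.2% of all genes), 2 lower (34.1%) and 5 not called, with a median of 0.07. *Ptk2b*, a tyrosine kinase bound by the protocadherin tail, rose from 31.6 to 62.6 CPM (0.99), *Nckap1*, a subunit of the WAVE complex, from 267 to 485 CPM (0.86), and *Ret*, a receptor kinase that phosphorylates protocadherins, from 7.27 to 12.9 CPM (0.83). *Fyn* (0.62) and *Abi1* (0.38) were higher too. *Wasf2*, another WAVE subunit, fell from 194 to 127 CPM (-0.61). *Adam10*, a protease that cleaves the ectodomain of gamma protocadherins, was at -0.28 (adjusted p = 0.0295) and kept its call in 1 of the 6 sets with a library left out and lost it with library size alone (0.0891) and with at least 10 counts in every library (0.0592).

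**Figure D5:**
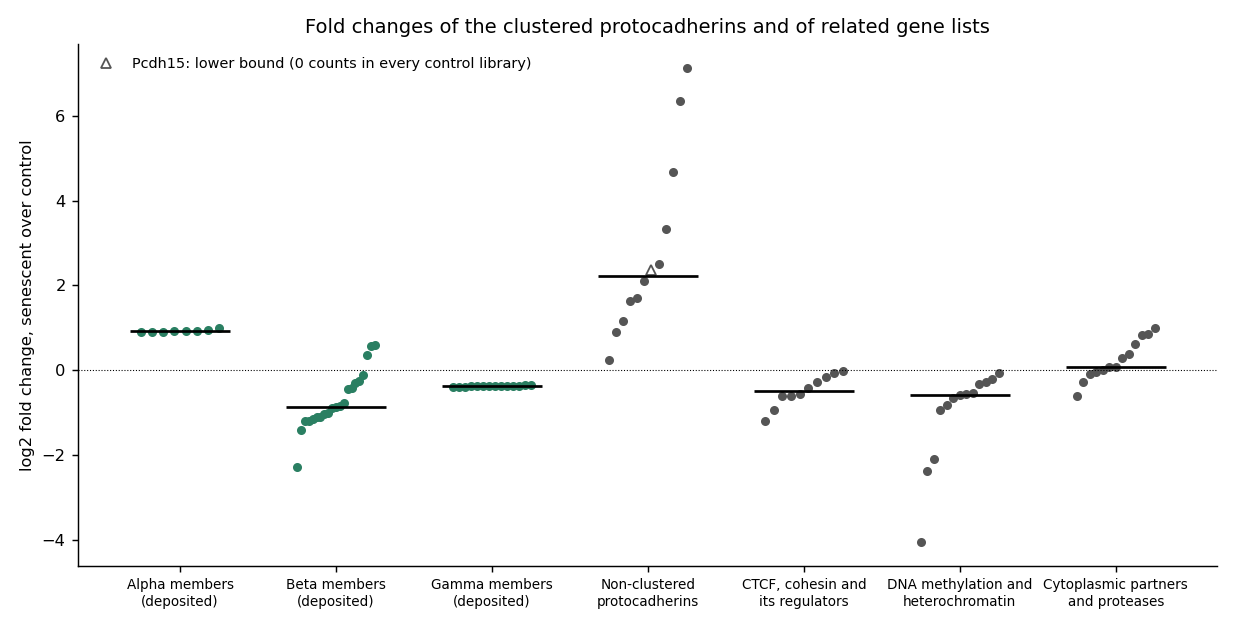
Log2 fold change of senescent over control cells (edgeR) for the alpha, beta and gamma members from the deposited counts and for the tested genes of 4 related lists. Points are genes, ordered by value within each column, black lines are medians, and the open triangle is the lower bound of *Pcdh15*, which had 0 counts in every control library. Deposited alpha and gamma points form flat rows because the members share their constant exons, beta points spread from -2.27 to 0.59, and every non-clustered protocadherin lies above 0.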

How the data were processed

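Counts per gene came from RNA-seq of 3 control and 3 senescent MAF samples. The authors mapped paired reads of 100 bases from stranded libraries, made from 200 ng of RNA, to mm10 by the MAPRSeq pipeline, which uses STAR, and counted them with Subread, and deposited the counts without normalization. The strand setting and the treatment of reads that overlap several genes or map to several places were not given in the sources used here. Groups and replicate numbers came from the sample titles. The members, set by biotype and symbol, the gene lists and the rule for named genes were chosen with earlier results of these data known.

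Genes were kept with filterByExpr (17589 of 43346), scaled by TMM (factors 0.968 to 1.03) and compared with edgeR's robust quasi-likelihood test (edgeR 4.0.16, R 4.3.3), on a model of group alone. The filter needs enough counts in 3 samples, so a gene near 0 in 1 group is tested through the other group. Such a gene can hardly be called in the opposite direction. Tests are two-sided, with Benjamini-Hochberg adjustment over all genes tested. The SE of a log2 fold change was derived from the test, as its absolute value divided by the square root of the F statistic. It therefore adds no information to the p-value. The common biological coefficient of variation was 0.100. Levels are TMM-scaled CPM computed from the deposited counts, as mean ± SD, and with 3 samples per group 0.1 is the smallest p of an exact permutation test. The fit was tested on simulated data.

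Constant exons were taken from GENCODE M21 on GRCm38, the assembly of mm10, in which all 58 rows of the family had the lengths given in the table. For a second table, chosen after seeing the data, the lowest row of the alpha and of the gamma cluster in each library was subtracted from every row of that cluster and entered once, and 17578 rows were tested. The rule for named members takes the C type, the 3 highest members of each cluster per length, the 5 largest changes in each direction with an adjusted p under 0.05 and a mean count of at least 20, and up to 5 members that were not called. It also takes every non-clustered protocadherin, up to 5 genes in each direction of the other lists, and each row of the locus with a mean count of at least 20. Other genes named were chosen after their values were seen. Alternatives were RLE scaling, library size alone, a minimum of 1 count in total in place of the filter, at least 10 counts in every library, DESeq2 1.42.0, a replicate term and each library left out. *Wapl* was not analysed here. Reads carried no molecular identifiers, so the limit of 3 counts covers counting error alone. No sequences are printed.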

Additional observations from a re-analysis of the deposited data

How the results depend on the processing

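Of 1713 values under an alternative, 1620 were kept. For a gene this means the same side of the threshold, and for a count of called genes a value near the reported one. Each gene value was set against the reported fit of the same counts, and 0 called genes reversed. The change of *Pcdhgb4* between deposited counts and counts above the shared ones, given below, is not among these. Removing the shared counts lowered the number of higher members from 10 to 4. Of the 8 alpha members called higher, 7 then had too few counts for a test and 1 stayed higher. *Pcdhb2* and *Pcdhb9* stayed higher, and *Pcdhgb4* moved from lower to higher. By the limits of the study, 0 members were higher, but 1 was with RLE scaling, with DESeq2 and with shared counts removed, 5 with library size alone, 2 with at least 10 counts in every library, and 0 to 7 with a library left out. Lower members by these limits numbered 5 in place of 9 with at least 10 counts in every library. Under this filter *Pcdhb6*, *Pcdhb10* and *Pcdhb11* were not tested, and the change of *Pcdhb5*, -1.01 in the reported fit, was smaller than the fold limit. The filter also left 5 non-clustered protocadherins called higher in place of 12. The others, *Pcdh8*, *Pcdh10*, *Pcdh11x*, *Pcdh12*, *Pcdh15*, *Pcdh17* and *Pcdh20*, each had a control library under 10 counts and were not tested. Lower partners and proteases numbered 1 in place of 2 with library size alone and with that filter, and 1 to 2 with a library left out. The cause of these differences was not tested beyond this.

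The replicate numbers do not pair the samples by any label, and same-numbered samples deviated from their group means with correlations of -0.374, 0.293 and -0.263. With the replicate block, 9 members were higher and 29 lower, and 3 higher and 22 lower with shared counts removed. The calls of *Pcdhb2* (adjusted p = 0.0649) and *Pcdhb16* (0.0864) were lost, and of other genes those of *Pcdh8* (0.0728), *Setdb1* (0.0523) and *Zfp57* (0.0551). Depth limits the alpha cluster, where most members had under 10 counts of their own, and the gamma values above the shared counts depend on *Pcdhgb8* having few reads of its own. Deposited alpha and gamma rows are not independent of each other within a cluster, so the number of rows called is not a number of genes that changed.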
